A study of Mus musculus with 6 samples.

Results

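The COP9 signalosome and the elongins were followed through 10 genes, Cops2, Cops3, Cops4, Cops5, Cops6, Cops7a, Cops8 and Cops9 for the signalosome and Elob and Eloc for the elongins. They were matched by symbol to GENCODE vM21 identifiers, and all 10 were among the 55450 genes of the count table. Cops9 and Elob were chosen by their fold between the groups of these libraries, which ran in opposite directions, and the other 8 were added to see whether further subunits followed. The values of Cops9 and Elob in this contrast, their intervals and the authors' values included, therefore describe the choice and support nothing beyond it.

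The libraries were made from mouse bone marrow of strain C57BL6/SJL. Haematopoietic stem cells carrying either endogenous or overexpressed miR-125a had been given to lethally irradiated recipients, and 12 weeks later 2000 lineage-negative, Sca-1-positive cells were sorted for each library and frozen in lysis buffer. The labels name 3 libraries per group, of which the count table holds endogenous replicates 1 and 3 and overexpressed replicates 2 and 3 (n = 2 per group), and the others were not analysed here. All libraries share the transplantation and the sort. The labels give neither the vector's promoter nor the age of the mice, and they leave unsaid whether each library had its own recipient, so the spread between libraries may be technical.

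The COP9 signalosome is a protein complex that removes the ubiquitin-like protein NEDD8 from cullins, the scaffolds of a large family of ubiquitin ligases, and so keeps these ligases cycling between active and inactive states. Its catalytic subunit is Cops5, which works beside the related but inactive Cops6. Most of the other subunits share a fold called the PCI domain, and Cops9, also called CSNAP, is the smallest subunit. Elongin B (Elob) and elongin C (Eloc) form a pair that links substrate receptors such as the von Hippel-Lindau protein to the cullins Cul2 and Cul5. The same pair binds elongin A (Eloa), which helps RNA polymerase II to elongate. The elongin ligases are thus among those whose cullin the signalosome acts on.

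The microRNA that was overexpressed pairs with targets mainly through its seed, bases 2 to 8, so its sequence is shown with the matching sites found in genes of the 2 complexes. The seed is in capitals in the first line and the matching 7 bases, CTCAGGG, in the other lines. The mature sequence is from RefSeq (GRCm38.p6, chr17:17830817-17830840, plus strand), and the sites are from GENCODE vM21 transcripts on GRCm38 (mm10).
miR-125a-5p: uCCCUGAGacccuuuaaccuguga
Cops7b site, chr1:86605401-86605429, plus strand: ttcccttcagaCTCAGGGgctcaatggat
Eloa site, chr4:136003552-136003580, minus strand: ttccaagggctCTCAGGGgctcactttct
None of the 10 members holds these 7 letters in its longest annotated 3' UTR, read on the transcript strand, and the 2 sites lie in the 3' UTRs of related subunits. The 3' UTRs of the members ran from 129 bases (Elob) to 1889 bases (Cops2), with 221 bases for Cops9. Among 8711 tested genes with an annotated 3' UTR, 17.6% held the 7 letters, and 8.99% of those with a 3' UTR no longer than 1889 bases did. The search covers only these windows.

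Total counts ran from 654126 to 737431 per library, and 1 count was worth 1.44 to 1.87 CPM (counts scaled to a common library size) after scaling, so members with few counts moved in coarse steps. Mitochondrial genes took 4.14% to 6.29% of the counts in 3 libraries and 0.558% in overexpressed 3. Odorant and pheromone receptor genes, which blood cells are not expected to use, had a median of 2.13 counts per kb of exon in the endogenous and 1.65 in the overexpressed group, and 95% of them lay under 9.12 and 7.62. Of 10808 genes that passed the low-count filter, 0 (0% higher and 0% lower) had an adjusted p under 0.05 in the quasi-likelihood F test of edgeR, which has little power with 2 libraries per group, and 566 had an unadjusted p under 0.05. DESeq2, which also called unchanged genes in simulated data of this design, called 57 genes higher (0.527%) and 94 lower (0.87%) among the same genes. Ly6a, which encodes the Sca-1 of the sort, had 0 or 1 count in each library, and the stem cell marker Kit, which the labels do not name for this sort, had 4 to 25. Summed over 10 neutrophil and monocyte markers, the level was 8666 and 8825 CPM in the endogenous and 21603 and 12990.3 CPM in the overexpressed libraries, with Itgam at 0 in overexpressed 2. The 9 erythroid markers summed to 695 and 3463 against 616 and 267 CPM, with Hba-a1 at 0 in overexpressed 3, and the 8 dendritic markers to 1855 and 1839 against 1384.5 and 1419 CPM. These 3 sums did not overlap between the groups, but single genes carried them, as sums without each gene in turn, added after seeing the data, showed. Without Ltf the neutrophil and monocyte sum was 579 and 3446 against 5762 and 847 CPM, and without Tfrc the erythroid sum was 162 and 2520 against 534 and 208 CPM, so both overlapped. The dendritic sum overlapped without Siglech or without Cd74. H2-Aa, with 7 and 9 counts against 96 and 801, and Itgax, with 6 and 12 against 11 and 22, ran against that sum. Of the single genes, 7 of 10, 6 of 9 and 4 of 8 overlapped between the groups, where 66.8% of all tested genes did. In the same order, 1, 1 and 2 genes were higher and 2, 2 and 2 lower without overlap (15.2% and 18% of all tested genes). The single genes of each list thus ran in both directions. The part of these cell types in the results for the members was not tested. The summed levels of the stem and progenitor, B-lineage, T and NK, and megakaryocyte lists overlapped. In RNA from sorted pools, fewer cells of a type and less RNA per cell cannot be told apart.

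Among the signalosome subunits, Cops9 stood low in both overexpressed libraries while the other subunits mostly overlapped between the groups. Cops9 (chromosome 1, 92637145 to 92641985, minus strand, 1499 bases of exon in 4 blocks) had 27 and 39 counts in endogenous 1 and 3, against 2 and 2 in overexpressed 2 and 3. On the CPM scale these levels were 48.1, 56.2, 3.73 and 3.28. Both endogenous libraries were high, both overexpressed libraries were low, and within each group the libraries lay close together. From the summed counts, 66 against 4, Cops9 was 15.1-fold lower with overexpression (95% exact interval 5.61 to 56.9). That interval covers counting error only, since the counts are of amplified cDNA without molecular identifiers. The log2 ratio of summed counts was -3.91, and it ran from -3.96 to -3.78 when each library was left out in turn.

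**Figure D1:**
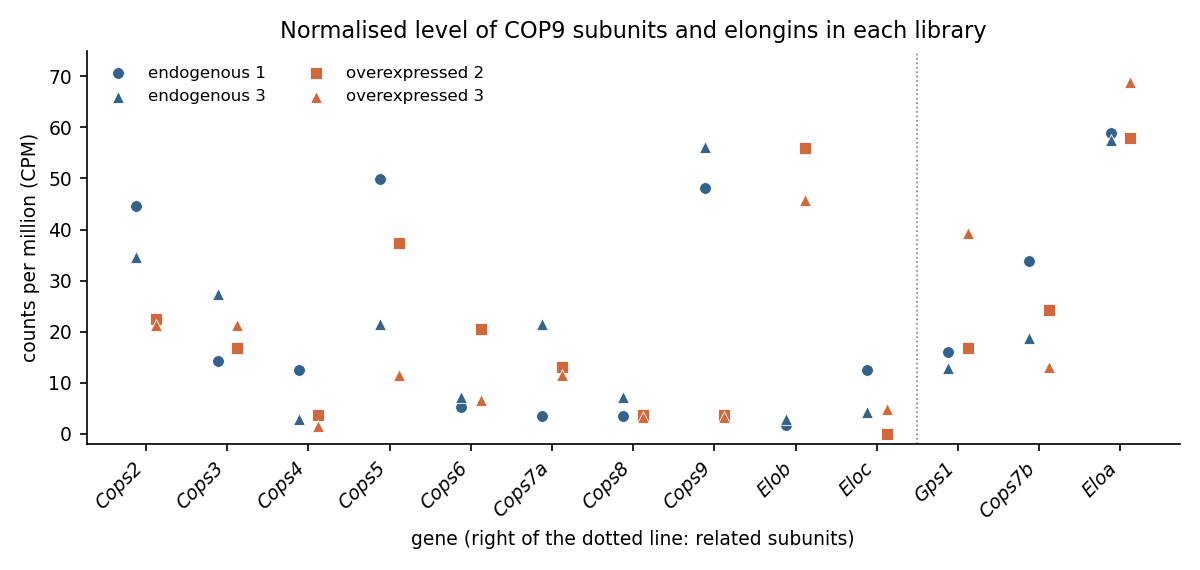
Level of each gene in each library, in CPM on effective library sizes, with the 10 members left of the dotted line and 3 related subunits right of it. Cops9 sits at 48.1 and 56.2 CPM in the endogenous libraries and under 4 CPM in the overexpressed ones, Elob does the reverse, and for most other genes the libraries of the 2 groups are mixed.

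The MPN pair at the catalytic centre did not show the pattern of Cops9. Cops5, the metalloprotease that cleaves NEDD8 from cullins, had 28 and 15 counts in endogenous 1 and 3 and 20 and 7 in overexpressed 2 and 3. The groups overlapped, and the spread inside each group, 2.31-fold and 3.25-fold in CPM, was wider than the 1.45-fold difference between them (exact interval from 2.45-fold lower to 1.14-fold higher). Its log2 ratio, -0.54, turned to 0.24 without endogenous 1 and to 0.16 without overexpressed 3. Cops6, the inactive partner, had 3 and 5 counts against 11 and 4. It was the 1 member besides Elob with more counts in the overexpressed group, 2.05-fold by the summed counts with an interval of 0.817 to 5.59. Most of that excess came from overexpressed 2, without which the log2 ratio fell from 1.04 to 0.09.

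Each member with a PCI domain had a ratio of summed counts below 1, but only for Cops2 did the counting interval exclude 1. Whether these members share a direction was not tested. Cops2, which helps to position the cullin on the complex, was counted 25 and 24 times in the endogenous libraries and 12 and 13 times in the overexpressed ones. Its levels of 44.6 and 34.6 CPM lay above 22.4 and 21.3 CPM, so the groups did not overlap, and the summed counts were 1.79-fold lower (1.08 to 3.02). Without 1 library its log2 ratio ran from -1.05 to -0.55, against -0.84. Cops3 had 8 and 19 counts against 9 and 13, and Cops7a had 2 and 15 against 7 and 7. For these 2 genes the endogenous libraries lay on either side of the overexpressed ones, and the ratios were 0.892 (0.484 to 1.63) and 0.902 (0.412 to 1.94). The sign of the Cops7a log2 ratio, -0.15, turned without endogenous 3, to 1.76, and that of Cops3, -0.16, turned to 0.41 without the same library and to 0.03 without overexpressed 2.

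Counts of Cops4 and Cops8 were too few for a direction to be read. Cops4 had 7 and 2 counts against 2 and 1, and its ratio of 0.365 had an interval of 0.0636 to 1.46. The small subunit Cops8 had 2 and 5 counts against 2 and 2, with a ratio of 0.626 (0.134 to 2.46). In both genes endogenous and overexpressed libraries overlapped.

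A share within a library does not depend on the scaling between libraries. Cops9 made up 26.5% of the counts of the 8 signalosome members in endogenous 1 (27 of 102, 95% Clopper-Pearson interval 18.2 to 36.1) and 31.5% in endogenous 3 (39 of 124, 23.4 to 40.4). In overexpressed 2 it made up 3.08% (2 of 65, 0.375 to 10.7) and in overexpressed 3 it made up 4.08% (2 of 49, 0.498 to 14.0). The 7 other signalosome members together summed to 75 and 85 counts in the endogenous and to 63 and 47 in the overexpressed libraries, or 134, 122, 118 and 77.0 CPM. Both overexpressed sums thus lay below both endogenous ones, overexpressed 2 by little and overexpressed 3 by more. The mitochondrial share was also low in overexpressed 3, and the part of that library's make-up in the sum was not tested. With the related subunits Gps1 and Cops7b added, the sums were 184 and 154 CPM against 159 and 129 CPM, so the groups overlapped.

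**Figure D2:**
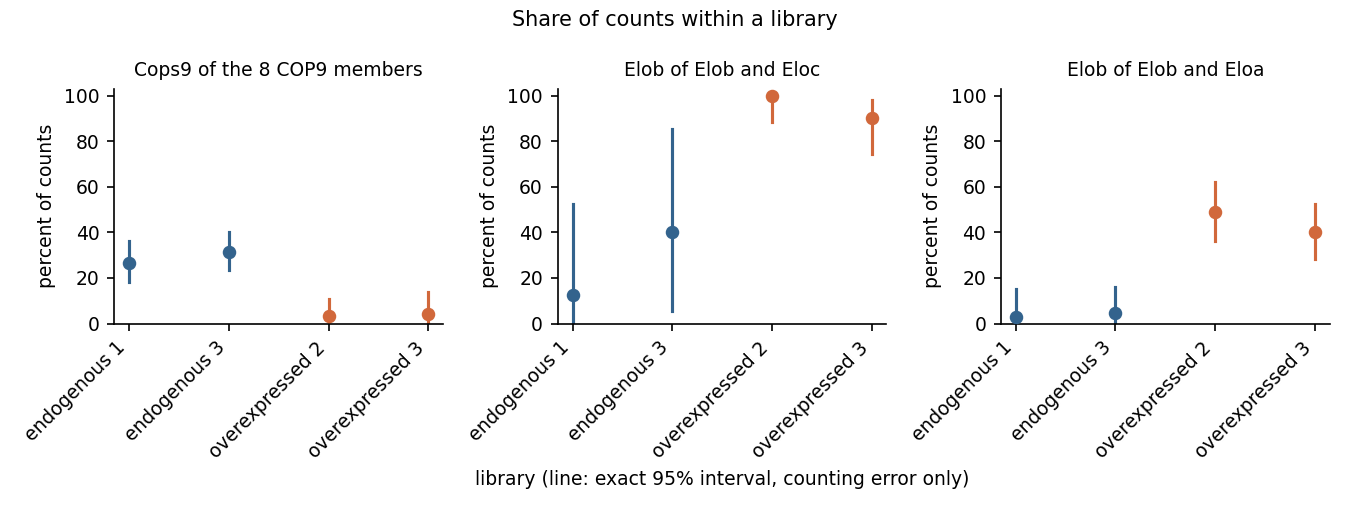
Percent of counts within each library, with exact 95% intervals that cover counting error only: Cops9 among the 8 signalosome members, Elob among Elob and Eloc, and Elob among Elob and Eloa. The share of Cops9 is 26.5% and 31.5% in the endogenous libraries and 3.08% and 4.08% in the overexpressed ones, and the share of Elob beside Eloa goes from 2.94% and 4.76% to 49.2% and 40.0%.

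Subunits of the signalosome outside the 10 members were Gps1, the largest subunit and the one also called CSN1, and Cops7b, the paralog of Cops7a. Gps1 had 9 and 9 counts against 9 and 24. After scaling, overexpressed 2 at 16.8 CPM lay just above the endogenous libraries at 16.0 and 13.0 CPM, and the ratio of 2.01 (1.098 to 3.79) came mostly from overexpressed 3, at 39.3 CPM. Gps1 fell under the count filter and was not tested, and it shares 99.8% of 1414 coding bases with the processed pseudogene Gm9816, which had 5, 1, 0 and 1 counts. Cops7b, which holds the seed match shown above, had 19 and 13 counts against 13 and 8. Its fitted log2 fold was -0.49 ± 0.53 (SE), with an adjusted p of 0.953 by edgeR's quasi-likelihood F test.

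Elob and Eloc did not show the same pattern of counts. Elob (chromosome 17, 23824738 to 23829136, minus strand, 1398 bases of exon in 5 blocks) had 1 and 2 counts in endogenous 1 and 3 and 30 and 28 in overexpressed 2 and 3, or 1.78, 2.88, 56.0 and 45.9 CPM. Both overexpressed libraries were far above both endogenous ones, and the log2 ratio of summed counts was 4.40, from 4.25 to 4.81 without 1 library. Eloc (chromosome 1, 16641725 to 16657042, minus strand), which binds Elob directly, had 7 and 3 counts against 0 and 3. The libraries overlapped for Eloc, with 4.32 CPM in endogenous 3 and 4.91 CPM in overexpressed 3, and the ratio of summed counts was 0.329 (0.0581 to 1.28). With so few counts, the interval of Eloc includes 1 and reaches a 17.2-fold fall, so neither a difference nor its absence can be read. Elob, chosen by this contrast, had a ratio of 21.2 (6.90 to 106).

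Elongin A, the third partner, had similar levels in the 4 libraries. Eloa had 33 and 40 counts against 31 and 42, or 58.8, 57.6, 57.8 and 68.8 CPM, with a fitted log2 fold of 0.12 ± 0.47 (SE) and an adjusted p of 0.995 by the edgeR test. Beside it the change in Elob can be read within each library: Elob made up 2.94% of the counts of the 2 genes in endogenous 1 (1 of 34, interval 0.0744 to 15.3), 4.76% in endogenous 3 (2 of 42, 0.582 to 16.2), 49.2% in overexpressed 2 (30 of 61, 36.1 to 62.3) and 40.0% in overexpressed 3 (28 of 70, 28.5 to 52.4). Of the counts of Elob and Eloc together, Elob took 1 of 8 and 2 of 5 in the endogenous libraries and 30 of 30 and 28 of 31 in the overexpressed ones.

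Copies of the elongin genes were checked because reads can be shared with them. Elob has 7 processed pseudogenes whose sequence is 87.8% to 98.0% identical over nearly its whole coding sequence. Together they had 4 and 7 counts in endogenous 1 and 3 and 3 and 2 in overexpressed 2 and 3. Among counted reads, the sum of Elob and its copies thus stayed low in the endogenous libraries. That sum cannot show reads that were left out for matching several genes. Eloc has 10 copies at 86.5% to 92.9% identity, with 10, 13, 6 and 15 counts in the same order, more than Eloc itself in every library. The counts of Eloc are uncertain for that reason, and how the counting treated reads that match several genes is not given in the sources used here. For Cops9 no copy reached 85% identity over 50% of the coding sequence. Elob shares 4 exon bases with Srrm2 on the opposite strand, and Cops5 shares 182 of its 3766 exon bases with Cspp1. Cops6 shares 64 bases with Mcm7, and Cops2 and Cops3 overlap neighbours over 31 to 279 bases. Reads there cannot be told apart without strand.

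**Figure D3:**
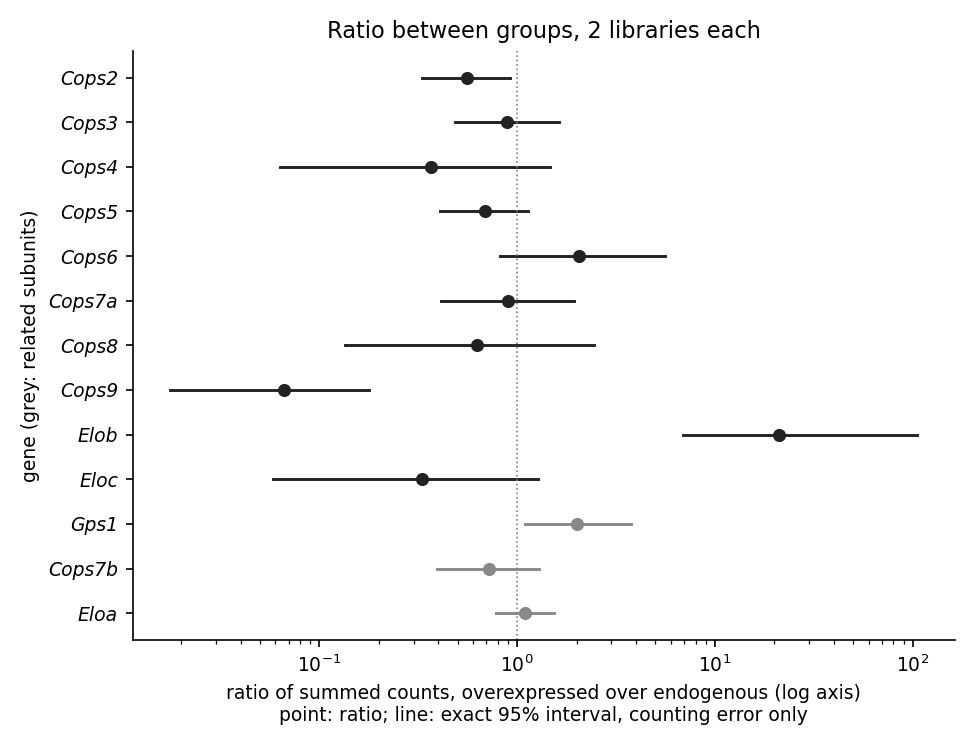
Ratio of summed counts, overexpressed over endogenous, on a log axis, with exact 95% intervals for counting error only; members are black and related subunits grey. Cops9 at 0.0664 and Elob at 21.2, the genes chosen by this contrast, lie farthest from the ratio of 1, Cops2 and Gps1 have intervals that just miss it, and the intervals of the other 9 genes include it.

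Counted over the members, the groups did not overlap for 3 of 10, Elob higher (15.2% of all tested genes were higher in this sense) and Cops9 and Cops2 lower (18%). These include the 2 genes chosen for that contrast. Of the 8 others, 1 was lower without overlap, 0 were higher and 7 overlapped (66.8% of tested genes did), and 7 intervals of the ratio included 1. In 7 of these 8 the summed counts were lower with overexpression, where 50.5% of tested genes were. The median log2 ratio of the 8 was -0.61 against -0.0048 over all genes tested. The shares and the median over all genes cover only those that passed the low-count filter. Cops4, Cops6, Cops7a, Cops8 and Eloc did not pass it, so the sets are unlike and a shared direction cannot be read from them. Only 5 of the 10 members, Cops2, Cops3, Cops5, Cops9 and Elob, passed the filter on low counts. Their fitted log2 folds were -0.85 ± 0.40 (SE), -0.14 ± 0.49, -0.55 ± 0.69, -3.82 ± 0.49 and 4.30 ± 0.52. Of the 10808 genes, 74 had a fold below that of Cops9 and 25 a fold above that of Elob.

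With no filter on low counts, the edgeR test called 327 genes higher (0.709%) and 495 lower (1.07%), and 0 of the 8 members other than Cops9 and Elob. A likelihood ratio test on the filtered genes called 26 genes higher (0.241%) and 58 lower (0.537%), and none of Cops2, Cops3 and Cops5. With changes of known size put into modelled counts, that test found 4% at a log2 fold of 1 and 12% at 2. The lack of a call for Cops2, Cops3 and Cops5, whose fitted log2 folds were smaller than 1 in size, therefore says little. DESeq2 gave no adjusted p for any of the 5 members tested. In the authors' deposited table, 6 of the 10 members were listed among 17039 genes, and 2 of them, Cops9 and Elob, were in the authors' list of 400 genes, which rests on these same counts. The folds of that table run the other way, endogenous over overexpressed. There Cops9 had a log2 fold of 3.81 and Elob of -4.32 in the authors' deposited table, and Cops2, Cops3, Cops5 and Cops7a ran from 0.08 to 0.84 with FDR of 0.999 to 1.00.

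Levels between genes were compared per length, as counts per kb of exon. Averaged over the 4 libraries, Cops9 (11.7 ± 12.4 SD) and Elob (10.9 ± 11.4 SD) came first, each because of 1 group. Cops2 (5.21 ± 1.96), Cops5 (4.65 ± 2.34), Cops3 (3.55 ± 1.45), Cops7a (2.86 ± 1.98) and Cops6 (2.28 ± 1.42) followed, and neighbours in that order differed by less than their SD. Eloc (1.07 ± 0.949), Cops8 (0.618 ± 0.337) and Cops4 (0.599 ± 0.541) were the lowest. By group, Cops9 had 22.0 counts per kb in the endogenous and 1.33 in the overexpressed libraries, and Elob 1.07 and 20.7. In the group where each was high it exceeded 95% of the receptor genes, and in the other group it lay under their median. In each group 1 of the 10 members lay above 95% of the receptor genes, so the other members could not be told from that background by density alone.

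**Figure D4:**
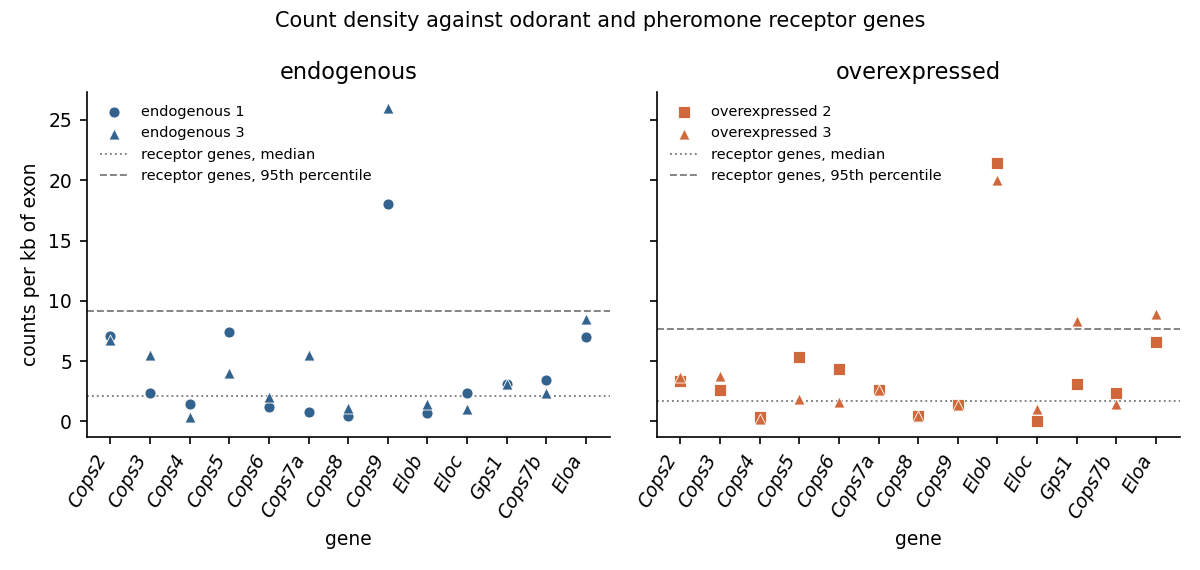
Counts per kb of exon in each library, endogenous left and overexpressed right, with the median (dotted) and 95th percentile (dashed) of 1479 odorant and pheromone receptor genes in that group. Cops9 alone among the members lies above the dashed line on the left and Elob alone on the right.

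The genes around the 2 complexes were read from 8 lists with 120 genes, all in the table, of which 64 passed the filter. In the edgeR F test 0 of the 64 were called higher and 0 lower. An unadjusted p under 0.05 in that test was found for 3 of the 64, and for 566 of all 10808 tested genes. In the NEDD8 cycle 12 of 16 genes were tested, 6 with higher and 6 with lower values (median log2 fold -0.03 against -0.01 over all genes tested). Nedd8, the modifier that the signalosome removes, had 147 and 10 counts in endogenous 1 and 3 against 2 and 7. Most of these counts came from endogenous 1, and the log2 fold of -4.12 ± 1.45 (SE) was -0.77 without that library (adjusted p = 0.845 with all 4 by the edgeR test). Dcun1d5, which helps to attach NEDD8 to cullins, had 6 and 13 counts against 8 and 325. The high value stood in overexpressed 3 alone, and the log2 fold of 4.19 ± 1.61 was 0.04 without it.

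Cullins and their adaptors were not called in either direction by the edgeR test, filtered or not, or by DESeq2. Of 8 cullins 4 were tested, 3 with higher and 1 with lower values (median log2 fold 0.27). Cul1, the scaffold of the SCF ligases, had 62 and 6 counts against 11 and 14, with a log2 fold of -1.43 that turned to 1.43 without endogenous 1. Cul7 had 125 and 58 counts against 415 and 100 (1.61 ± 1.02 SE), and its log2 fold was 0.12 without overexpressed 2. Of 14 other adaptors and receptors 10 were tested, 2 with higher and 8 with lower values (median -0.14). Fbxw7, an F-box protein that marks cyclin E and Myc for degradation, had 65 and 62 counts against 30 and 33 (-0.90 ± 0.53), with groups that did not overlap and a log2 fold of -0.58 without endogenous 1. Skp1a, the SCF adaptor that resembles Eloc in structure, had 26 and 77 counts against 28 and 18 (-0.95 ± 0.64), and without endogenous 3 its log2 fold was -0.20. By the edgeR test the adjusted p of these 4 ran from 0.846 to 0.893.

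Receptors that use the elongin pair were not called in either direction by the filtered edgeR test, and with no filter Klhdc2 was called lower. Of 38 listed, among them Vhl and the SOCS-box proteins, 13 were tested, 5 with higher and 8 with lower values. Their median log2 fold was -0.09 and the range -0.72 to 0.74. Socs7 had 6 and 12 counts against 18 and 9 (0.74 ± 0.57 SE), and Asb4 had 12 and 20 against 7 and 11 (-0.69 ± 0.44). Without overexpressed 2 these log2 folds were 0.11 and -0.43. The adjusted p of these 2 was 0.896 and 0.864 by the edgeR test. Transcription elongation factors, the other field in which elongins act, had 15 of 27 genes tested, 6 with higher and 9 with lower values and a median of -0.10. Hexim1, an inhibitor of the elongation kinase P-TEFb, had 27 and 21 counts against 8 and 15 (-0.96 ± 0.48), and Ssrp1, a subunit of the histone chaperone FACT, had 45 and 30 against 18 and 20 (-0.89 ± 0.51). Without endogenous 1 these log2 folds were -0.49 and -0.26. Both had an adjusted p of 0.845 by the edgeR test.

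Translation initiation factor 3 contains, among other subunits, PCI and MPN subunits like those of the signalosome. Of its 14 listed subunits 8 were tested, 5 with higher and 3 with lower values (median log2 fold 0.22, range -4.06 to 2.76). Eif3h, an MPN subunit, had 35 and 16 counts against 8 and 8 (-1.58 ± 0.60 SE), with groups that did not overlap and a log2 fold of -0.60 without endogenous 1. Eif3a, the largest subunit, had 7 and 410 counts against 5 and 16, nearly all in endogenous 3, and its log2 fold of -4.06 became 0.51 without that library. Both had an adjusted p of 0.845 by the edgeR test. With no filter on low counts, 2 of the 120 listed genes were called higher, Dcun1d5 and Eif3d, and 3 lower, Nedd8, Eif3a and Klhdc2. Over all 46089 genes in that test, 0.709% were called higher and 1.07% lower. Klhdc2, an elongin-dependent receptor, had 1 and 14 counts against 0 and 0.

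**Figure D5:**
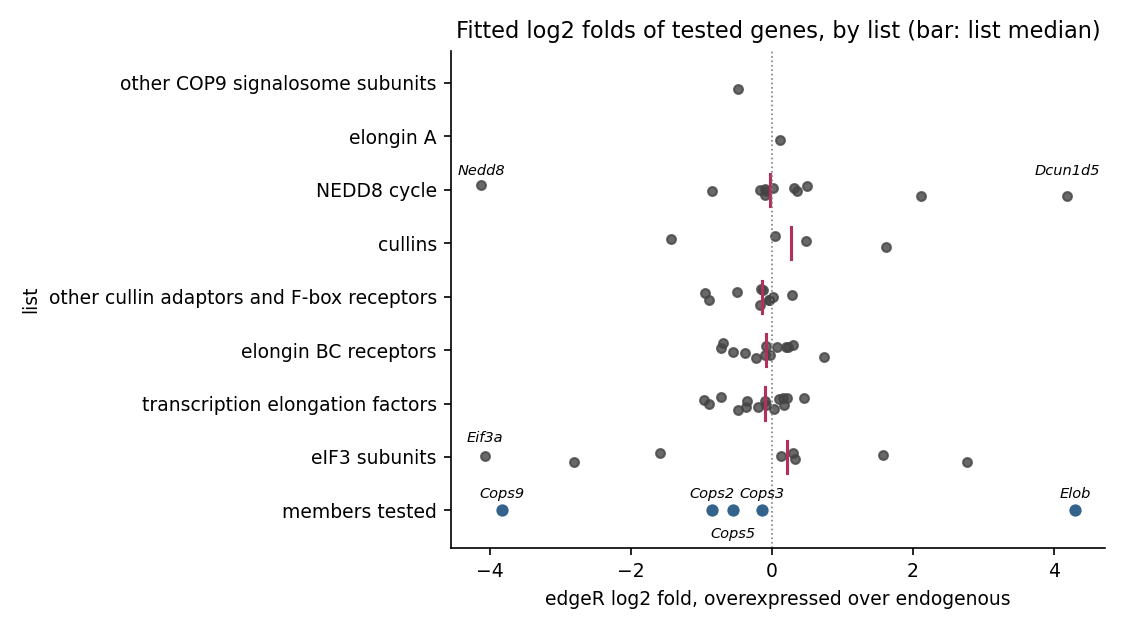
Fitted log2 fold, overexpressed over endogenous, of each tested gene by list, with the list median as a bar for lists of over 2 genes and the 5 tested members in the bottom row. Most genes lie near 0, while Nedd8 at -4.12, Dcun1d5 at 4.19 and Eif3a at -4.06 lie as far out as Cops9 at -3.82 and Elob at 4.30.

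Genes with the pattern most like that of Cops9 and of Elob were found by the root mean square difference of log2(CPM + 1), centred on each gene's mean over the 4 libraries. Closest to Cops9 were Ndufc1, a subunit of respiratory complex I (11 and 26 counts against 1 and 1, difference 0.261), Tfrc, the transferrin receptor and 1 of the 9 erythroid markers above (299 and 655 against 44 and 36, difference 0.268), and Zc3h7a, a zinc finger protein (137 and 124 against 7 and 11, difference 0.319). Closest to Elob were Srsf11, a splicing factor (8 and 16 against 114 and 237, difference 0.411), the antisense transcript 5031434C07Rik (2 and 2 against 24 and 22, difference 0.425) and CT025622.1, annotated as a processed pseudogene (1 and 2 against 14 and 27, difference 0.457). With 4 libraries such likeness is a description of these counts. No other member of the 2 complexes was among these genes. The search covered only genes that passed the low-count filter, so Cops4, Cops6, Cops7a, Cops8, Eloc and Gps1 could not appear. Only the closest genes were listed as well, so that absence does not show whether further subunits followed.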

How the data were processed

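RNA of 4 libraries, 2 per group, was analysed. The members and gene lists were chosen with earlier results of these data known. Per the submitters' processing notes the tools were STAR, FastQC 0.11.8 and edgeR 3.24.3, with mm10. Which counter and annotation were used, and whether strand was, is not given in the sources used here. For each gene the authors deposited raw counts, whole numbers with no normalization. They also deposited log2 folds and mean log2 CPM, p-values with FDR values, and a score made of the signed -log10 of the p-value beside a likelihood ratio score, per the file headers and the values. In that table all 1829 genes past a log2 fold of 1 in both analyses had the opposite sign.

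Counts were fitted with edgeR 4.0.16 in R 4.3.3 (low-count filter filterByExpr, TMM normalization and the quasi-likelihood F test in its legacy form), with Benjamini-Hochberg adjustment over all genes tested and a threshold of 0.05. DESeq2 1.42.0, RLE factors, no filter, a likelihood ratio test and leaving out each library were the alternatives. The fits were tested on simulated data of this design, in which the F test made no calls even for large changes, so its lack of calls says little, while the likelihood ratio test and DESeq2 found most large changes and also called unchanged genes. At log2 folds of 1, 2, 4 and 6, the likelihood ratio test found 4%, 12%, 74% and 98% of those changes. DESeq2 found 6%, 42%, 92% and 94%. Whether these shares hold at counts as low as those of the members was not tested. CPM used effective library sizes. Ratios are of summed counts scaled by effective size with exact binomial intervals. Copies were found with BLAST 2.17.0 at 85% identity over 50% of the coding sequence. Genes named were the members, the 2 of each list with the smallest p, and the 3 most alike. Klhdc2 and Eif3d were named after their values were seen.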

Additional observations from a re-analysis of the deposited data

How the results depend on the processing

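Over all genes, 327 were called higher and 495 lower with no low-count filter, 57 and 94 by DESeq2, and 26 and 58 by the likelihood ratio test, against 0 and 0 in the filtered quasi-likelihood test, with RLE size factors and without each library. Of 120 pathway genes, 2 were called higher and 3 lower with no filter, where 0.709% and 1.07% of all genes were. DESeq2 called 1 higher and 1 lower of the 64 tested, Dcun1d5 and Nedd8, where 0.527% and 0.87% of all genes were called. The filtered quasi-likelihood test, RLE size factors and the likelihood ratio test gave 0 and 0. Members whose groups do not overlap numbered from 1 to 4 higher and from 3 to 5 lower without 1 library, where a group of 1 overlaps less easily, against 1 and 2 with all 4. In the same settings 31.2% to 36.0% of all tested genes were higher and 28.3% to 35.8% lower without overlap. The log2 ratio of the 10 members and 3 related subunits changed sign in 0 of 33 values under other settings and in 6 of 51 without 1 library, all in Cops3, Cops5, Cops7a and Cops7b. For Eloc no ratio was made without overexpressed 3, since the other overexpressed library had 0 counts. Among the named pathway genes, the log2 fold without 1 library ran from -0.95 to 0.10 for Cops7b, from -2.35 to 1.43 for Cul1 and from -4.92 to 0.51 for Eif3a. No paired analysis was possible because the libraries of the 2 groups share only replicate number 3. The cause of these changes was not tested. Depth limits Cops4, Cops8 and Eloc most, since each has 0 to 7 counts per library.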
